A study of Mus musculus with 11 samples.

Results

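The genes of the circadian clock examined here were 10: Arntl, Clock, Npas2, Per1, Per2, Per3, Nr1d1, Nr1d2, Dbp and Ciart. They were chosen by name, as the rows of the deposited table whose RefSeq accession carries these symbols, and each matched 1 row of 21878. Hearts of female wild-type mice were compared in 2 groups. The PCOS group (5 samples) came from a mouse model of polycystic ovary syndrome induced by anti-Müllerian hormone (AMH) given before birth, and the control group (6 samples) received PBS vehicle before birth. The labels used here give no age, litter, batch or hour of collection. They also do not state that each sample is a different mouse. The p-values below are therefore about sample-to-sample spread, part of which may be technical.

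The core clock is a transcriptional feedback loop found in nearly every mouse cell, heart muscle included. BMAL1 (the product of Arntl) pairs with CLOCK or NPAS2 and binds E-box elements, which drives the Per genes, the REV-ERB genes Nr1d1 and Nr1d2, the D-box activator Dbp and the repressor Ciart. PER proteins, with the cryptochromes, shut BMAL1 and its partner off, and the REV-ERB proteins repress Arntl and Npas2 through ROR response elements (ROREs). In a tissue followed around the day, Arntl and Npas2 transcripts are therefore high when those of Dbp and Nr1d1 are low, and the reverse. The comparison asked whether the 2 groups, or single libraries, differed in where they stood on this cycle.

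Matches to such elements can be read in the promoters of several of these genes. RefSeq promoter windows (GRCm38.p6, from 250 bases before to 50 after a listed start site) covered 9 of the 10 genes, all but Per2, in 13 windows. They were searched on both strands for CACGTG (the E-box), CACGTT (an E-box variant), TTACGTAA and TTATGTAA (D-boxes), AGGTCA, and the RORE. Stretches from 4 genes are shown because they hold matches to the elements named in the loop above or, for Per3, to the D-box that DBP binds, with each matched element in capitals. Ciart lies at chr3:95882255-95882356 (minus strand, 3 E-boxes), Per1 at chr11:69098771-69098800 (plus strand, 1 E-box) and Per3 at chr4:151044804-151044882 (minus strand, 2 D-boxes). The Arntl stretches, chosen around each matched element, lie at chr7:113207492-113207520 and chr7:113207528-113207556 (plus strand, 1 RORE each).
Ciart: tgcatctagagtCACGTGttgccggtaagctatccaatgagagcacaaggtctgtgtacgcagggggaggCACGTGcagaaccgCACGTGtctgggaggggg
Per1: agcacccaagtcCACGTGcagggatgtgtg
Per3: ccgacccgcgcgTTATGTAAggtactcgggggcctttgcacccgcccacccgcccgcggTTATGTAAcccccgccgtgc
Arntl, upstream element: attggtcggAAAGTAGGTTAgtggtgcga
Arntl, downstream element: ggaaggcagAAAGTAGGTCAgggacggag

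Of all 32851 promoter windows in the RefSeq table, 7.15% held an E-box, 1.06% a D-box and 0.682% a RORE. Windows as dense as these were rarer: 29 held 3 or more E-boxes, 8 held 2 or more D-boxes and 2 held 2 or more ROREs. The downstream RORE of Arntl also contains AGGTCA, a match present in 16.3% of all windows, which was found in windows of Per1, Nr1d2 and Clock as well. CACGTT, present in 4.68% of windows, was found in the window of Nr1d1. No element of these letters lay in the windows of Dbp and Npas2. A match describes the sequence and does not show binding.

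RNA-seq depth, read back from the deposited FPKM values (fragments scaled to transcript length and library size), lay between 11866291 and 14346620 reads per library. Genes that define heart muscle, such as Myh6 and Tnnt2, were abundant in every library. Control replicate 6 also held liver transcripts: the FPKM of 12 hepatocyte markers summed to 2048 there, and to at most 14 in any other library. Alb, the serum albumin gene, was at 852 FPKM and Apoa1 at 274 FPKM in that library. For the clock genes that library lay inside the range of the other controls except for Npas2 (0.365 FPKM), Per1 (10.2 FPKM) and Ciart (7.64 FPKM), where it was the lowest control.

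In every library Arntl and Npas2 were the least abundant of the 10 genes, and Dbp, Nr1d1 and Nr1d2 the most abundant. Of all 21878 rows, 8902 had a mean FPKM below that of Arntl. Averaged over the 11 libraries, Dbp stood highest at 86.3 FPKM, followed by Nr1d2 (35.7 FPKM) and Nr1d1 (34.9 FPKM), which did not separate: Nr1d2 was above Nr1d1 in 5 of the 11 libraries. Per1 (13.3 FPKM), Per2 (10.2 FPKM), Ciart (8.77 FPKM) and Per3 (7.58 FPKM) formed a middle tier whose neighbours overlapped in range, although Per1 exceeded Per2 in all 11 libraries. Clock, at 2.65 FPKM, lay apart from this tier, and Npas2 (0.586 FPKM) and Arntl (0.213 FPKM) lay lowest. No library of Dbp overlapped any library of Nr1d2, and no library of Npas2 overlapped any library of Arntl. FPKM divides by the length of each row, here from 2.52 kb for Dbp to 11.1 kb for Per3. The order between genes therefore depends on the lengths used. GENCODE vM21 places other genes across several of these: Thra on the opposite strand over 1075 bases of Nr1d1, Sphk2 on the opposite strand over 737 bases of Dbp, an antisense transcript over Ciart and over Arntl, and the span of Camta1 on the same strand as Per3. The strand used in counting is not given in the sources used here, so reads in those overlaps cannot be told apart. In whole hearts, fewer cells of a type and less RNA per cell cannot be told apart.

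**Figure D1:**
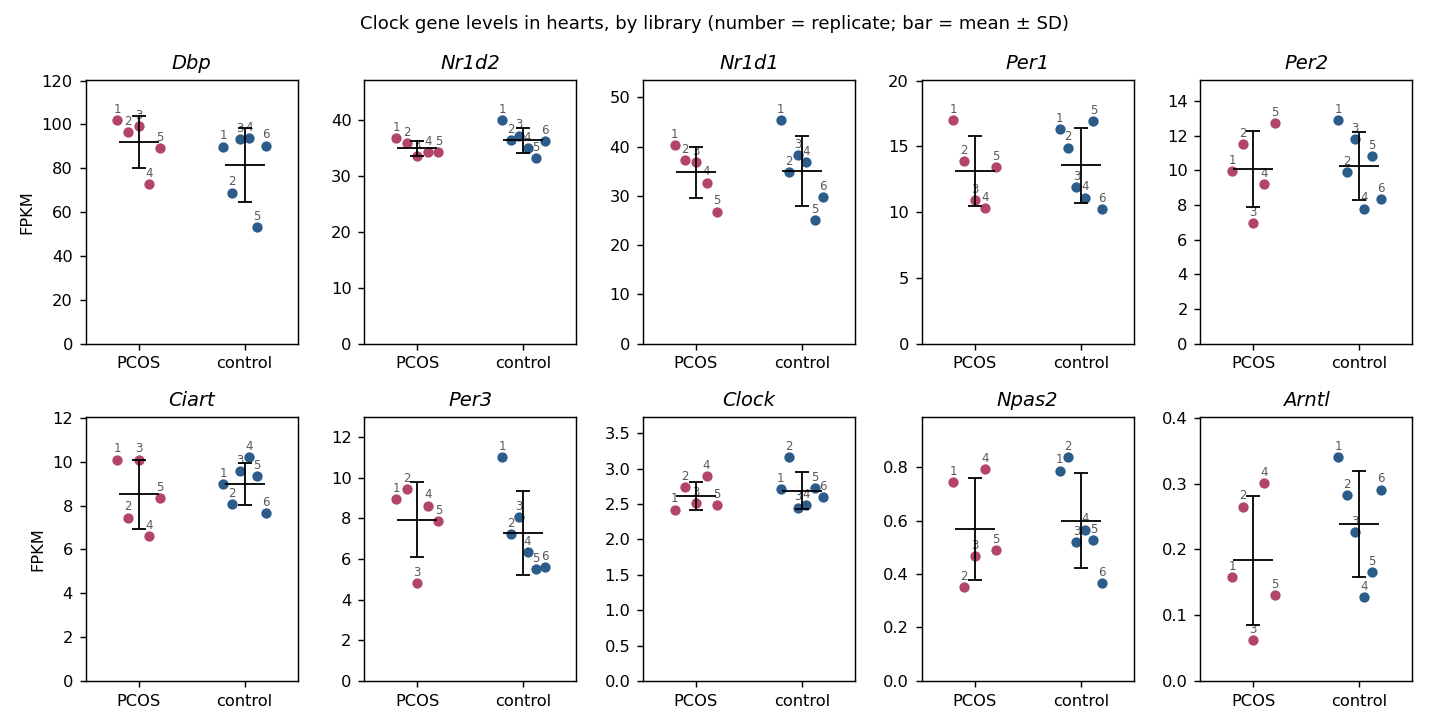
FPKM (vertical axis, from 0) of each clock gene in every library of PCOS and control hearts, ordered by mean level; numbers are replicate numbers and the bar is the group mean ± SD. The groups overlap in all 10 genes, and Arntl stays at or below 0.34 FPKM in every library.

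The activators of the loop were the least abundant members. Arntl, which encodes BMAL1, the partner of CLOCK or NPAS2, had 0.158, 0.265, 0.062, 0.301 and 0.13 FPKM in PCOS replicates 1 to 5. In control hearts the lowest, median and highest values were 0.127, 0.254 and 0.34 FPKM. These levels rest on 5 to 25 reads per library (row length 5.62 kb), and the 95% Poisson intervals of the reads, which cover counting error only, were separate in 5 of 55 pairs of libraries. PCOS replicate 3, the lowest library, had an interval of 0.0201 to 0.145 FPKM, and control replicate 1, the highest, one of 0.22 to 0.502 FPKM. The groups overlapped across most of this range.

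Npas2, a CLOCK paralog that can replace it beside BMAL1, had 0.745, 0.351, 0.467, 0.792 and 0.489 FPKM in PCOS replicates 1 to 5, against a lowest, median and highest of 0.365, 0.547 and 0.837 FPKM in controls, from 20 to 52 reads per library. PCOS replicates 1 and 4 and control replicates 1 and 2 formed the upper end, so high and low libraries occurred in each group. Clock varied little, between 2.42 and 2.89 FPKM in PCOS hearts and between 2.45 and 3.16 FPKM in control hearts.

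Among the E-box targets, Dbp, a PAR bZIP transcription factor that activates genes through D-boxes, had 102, 96.5, 99.2, 72.7 and 89.1 FPKM in PCOS replicates 1 to 5, against a lowest, median and highest of 53.1, 90 and 93.7 FPKM in controls. Control replicates 5 and 2 (68.9 FPKM) were the low libraries, with PCOS replicate 4 next. Nr1d1, which encodes the heme-binding repressor REV-ERB-alpha, had 40.3, 37.3, 36.8, 32.7 and 26.8 FPKM in PCOS hearts, against a lowest, median and highest of 25, 35.8 and 45.4 FPKM in controls. Control replicate 5 was again lowest and PCOS replicate 5 close to it. Nr1d2, the REV-ERB-beta gene, stayed within 33.5 to 36.8 FPKM in PCOS hearts and 33.2 to 40 FPKM in control hearts. Ciart, a repressor of CLOCK and BMAL1, ran from 6.59 to 10.1 FPKM in PCOS hearts and from 7.64 to 10.2 FPKM in control hearts.

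The Period genes encode the repressors that close the loop. Per1 had 17, 13.9, 10.9, 10.3 and 13.4 FPKM in PCOS replicates 1 to 5, against a lowest, median and highest of 10.2, 13.4 and 16.9 FPKM in controls. Per2 had 9.93, 11.5, 6.95, 9.21 and 12.7 FPKM in PCOS hearts, against 7.78, 10.4 and 12.9 FPKM in controls (lowest, median, highest). Per3 had 8.94, 9.42, 4.82, 8.62 and 7.88 FPKM in PCOS hearts, against 5.49, 6.78 and 11 FPKM in controls (lowest, median, highest). PCOS replicate 3 was the lowest of all 11 libraries in Per2, Per3 and Arntl, and control replicate 1 the highest in Per2, Per3, Nr1d1, Nr1d2 and Arntl. Control replicate 5 was lowest in Dbp, Nr1d1 and Nr1d2, but near the top for Per1 (16.9 FPKM). The libraries at the extremes thus differed from gene to gene.

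No clock gene was called different between PCOS and control hearts. Of the 10 genes, 8 passed the filter on low values (a mean of at least 1 FPKM), and 0 of these 8 were called by limma at an adjusted p under 0.05, where 0.138% of all 10891 tested rows were called. At an unadjusted p under 0.05 the count was also 0, against 6.68% of all rows, and voom, limma's method for counts, called 0 on the recovered reads at either threshold. Of the 8 genes, 3 were higher and 5 lower in PCOS, with a median difference of −0.03 on the log2(FPKM + 1) scale beside 0.0017 over all rows. PCOS and control values overlapped in all 10 genes. The share of all rows that overlap is not given here, so this count is a description only.

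The differences were small beside their errors. Dbp averaged 92 ± 11.8 FPKM in PCOS hearts (SD, n = 5) and 81.5 ± 16.7 FPKM in control hearts (SD, n = 6), a log2 difference of 0.19 (SE 0.15, limma adjusted p = 0.79). It was 0.27 without PCOS replicate 4, the lowest PCOS library for Dbp, and −0.01 without control replicates 2 and 5, the lowest controls; removing libraries at one end moves the value in a fixed direction. Per3 averaged 7.94 ± 1.83 FPKM in PCOS and 7.29 ± 2.08 FPKM in controls (log2 difference 0.11, SE 0.18, limma adjusted p = 0.876). Leaving out its low libraries moved it likewise, to 0.26 without PCOS replicate 3 and −0.04 without control replicates 5 and 6. Nr1d1 averaged 34.8 ± 5.19 FPKM in PCOS and 35 ± 7.06 FPKM in controls (log2 difference 0.00, SE 0.14, limma adjusted p = 0.998).

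Per1, Per2, Clock, Nr1d2 and Ciart had log2 differences of −0.04, −0.03, −0.03, −0.05 and −0.08, with standard errors of 0.06 to 0.15. The 95% intervals of the 8 tested genes, not adjusted for the number of genes, lay between −0.36 and 0.50, so a doubling or halving of any of them fell outside its interval. Arntl and Npas2 were fitted without the filter, where 0.0812% of 17237 rows were called. Arntl gave −0.07 (SE 0.06, limma adjusted p = 0.856) and Npas2 −0.03 (SE 0.09, limma adjusted p = 0.944). At their low levels the added 1 FPKM compresses such differences: voom on the reads gave −0.52 for Arntl (95% interval from −1.35 to 0.31) and −0.10 for Npas2 (from −0.65 to 0.46). For Arntl the interval leaves out a doubling, while falls down to its lower bound lay inside it and were not excluded.

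**Figure D2:**
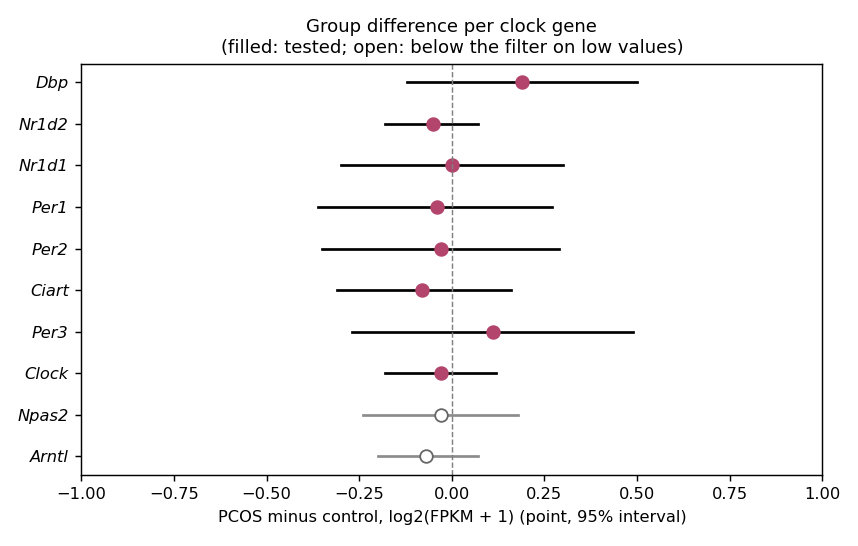
Difference between PCOS and control hearts for each clock gene on the log2(FPKM + 1) scale (horizontal axis; point and 95% interval from limma, n = 5 and 6); open points are the genes below the filter on low values. All 10 intervals include 0, and the highest bound is 0.50 for Dbp.

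For each library, a clock balance was taken as the mean centred log2(FPKM + 1) of Arntl and Npas2 minus that of Dbp, Nr1d1, Per1, Per2 and Per3. It is a description of each library, carries no test and was not checked against a known hour of collection. The balance was −0.17, −0.25, 0.04, 0.25 and −0.12 in PCOS replicates 1 to 5, and −0.16, 0.18, −0.11, 0.05, 0.16 and 0.15 in control replicates 1 to 6. It averaged −0.05 ± 0.20 in PCOS (SD, n = 5) and 0.04 ± 0.15 in controls (SD, n = 6), and the PCOS libraries held both the lowest and the highest value. With a pseudocount of 0.1 in place of 1, which gives the low activator genes more weight, it averaged −0.13 ± 0.37 in PCOS (SD, n = 5) and 0.11 ± 0.20 in controls (SD, n = 6), and PCOS replicates 3 and 4 became the extremes, at −0.35 and 0.53. With only Dbp and Nr1d1 as targets, the lowest value was −0.30 in PCOS replicate 3 and the highest 0.51 in control replicate 5. With the 5 target genes alone, sign reversed, both extremes were controls, replicate 1 at −0.32 and replicate 5 at 0.21. The order of the libraries therefore depended on the pseudocount and on the genes used.

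Without centring, Dbp stood far above Arntl and Npas2 in every library. The ratios below depend on row length, are on another scale than the balance and do not give a place on the cycle. The ratio of Dbp to Arntl, both in FPKM, had a lowest, median and highest value of 241, 647 and 1600 in PCOS hearts. In control hearts the values were 244, 316 and 740. The 1600 came from PCOS replicate 3, where Arntl had 5 reads (95% Poisson interval 0.0201 to 0.145 FPKM). Arntl rested on 5 to 25 reads per library, so the group medians of this ratio carry its counting error. The ratio of Dbp to Npas2 was 91.8, 182 and 275 in PCOS hearts and 82.3, 140 and 247 in control hearts (lowest, median, highest). In all 11 libraries the output gene thus exceeded each activator gene by a wide margin.

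**Figure D3:**
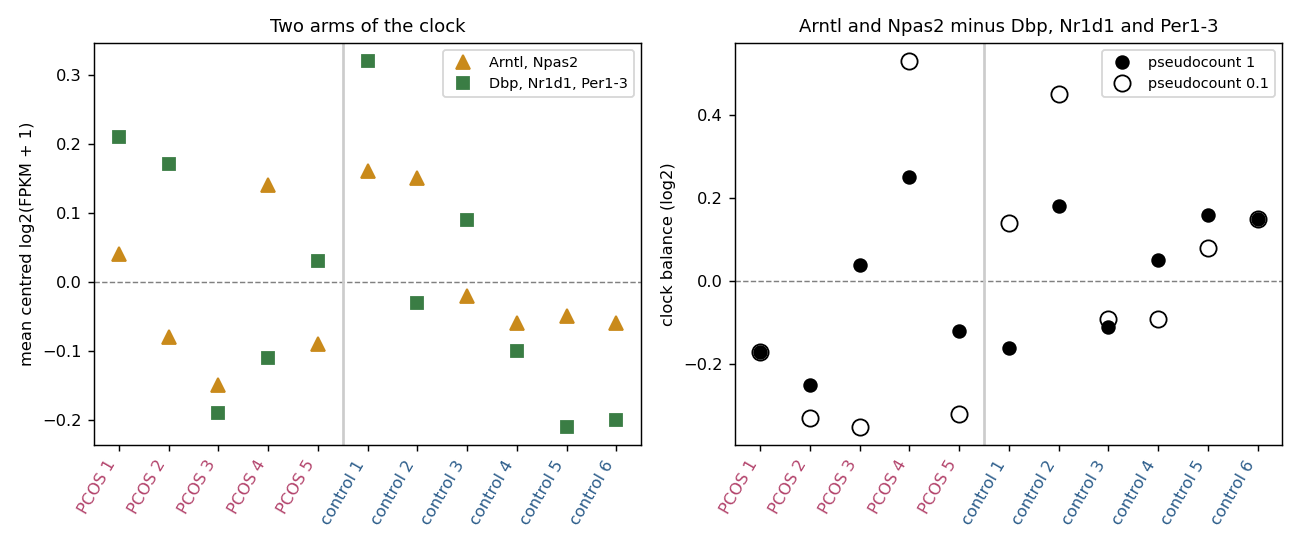
Left, the centred mean log2(FPKM + 1) of Arntl and Npas2 (triangles) and of Dbp, Nr1d1, Per1, Per2 and Per3 (squares) in each library; right, the balance (first minus second) with a pseudocount of 1 (filled) or 0.1 (open). Arms move together in some libraries (PCOS replicate 3, control replicate 1) and apart in others (PCOS replicate 4), and the PCOS values span the control values.

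Arntl and Npas2 peak opposite to Dbp and Nr1d1 in tissues sampled around the clock, so the relation of activator and target genes across libraries was examined. For the pairs with Per genes no direction was set. Arntl and Npas2 were each correlated with Dbp, Nr1d1, Per1, Per2 and Per3 over the 11 libraries, 10 pairs in all. Pearson's r was negative in 2 pairs and positive in 8, and 0 pairs reached an adjusted p under 0.05 by a two-sided permutation test (smallest adjusted p = 0.56 for r and 0.645 for Spearman's rho). The negative pairs were those with Dbp: r was −0.19 for Arntl (rho −0.45, permutation p = 0.592 and 0.172) and −0.27 for Npas2 (rho −0.43, permutation p = 0.455 and 0.194).

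Arntl and Per3 gave the largest r, a positive 0.58 (rho 0.52, permutation p = 0.0657 and 0.108, adjusted p = 0.56 and 0.645). It was 0.15 without PCOS replicate 3 and control replicate 1, the libraries farthest from the median of Arntl. Their removal narrows the range of Arntl, so the drop does not show what r rested on. Leaving out each library in turn gave 0.38 to 0.75. Within the 6 controls alone r for this pair was 0.59 (exact permutation p = 0.212). No pair passed the test in either direction. With 11 libraries and few Arntl reads, even the largest r, 0.58, did not pass, so an opposition of like size could also go undetected.

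**Figure D4:**
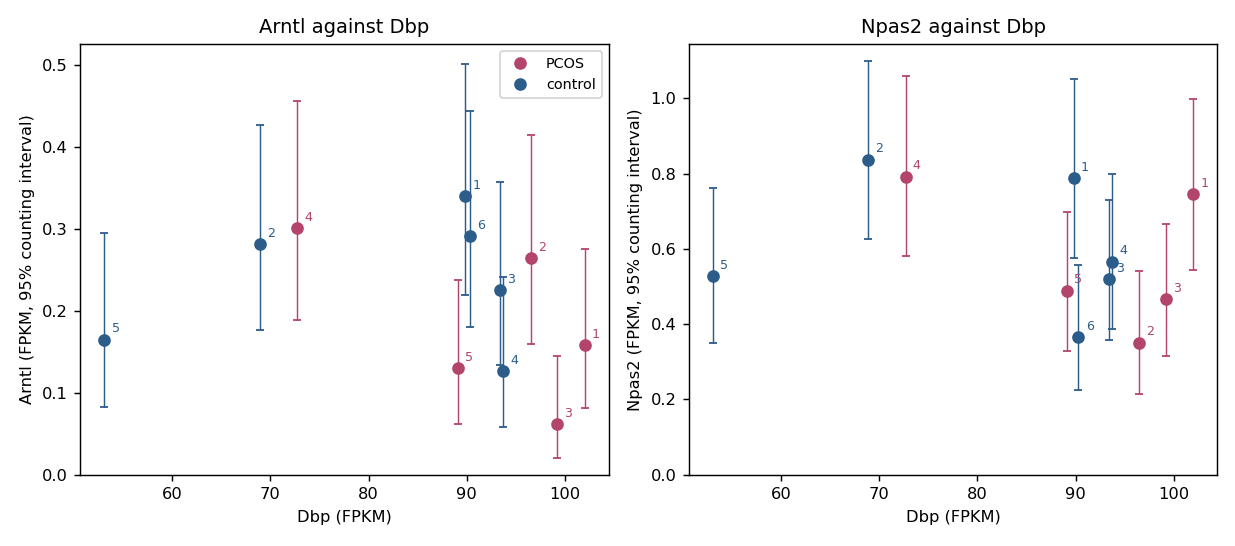
Arntl (left) and Npas2 (right) against Dbp in each library, all in FPKM; bars are 95% Poisson intervals of the reads (counting error only) and numbers are replicate numbers. The points of PCOS and control hearts intermix, and for Arntl most intervals overlap.

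Although no group difference was called, 5 of the 8 tested clock genes varied widely between libraries of a group, at percentile 88.8 or above of all tested rows. The residual SD within groups was 0.34 for Per3, 0.28 for Per1, Per2 and Dbp, and 0.26 for Nr1d1 on the log2(FPKM + 1) scale, against a median of 0.15 over all tested rows. This put Per3 at percentile 95.3, Per1 and Per2 at percentile 91, Dbp at 90.9 and Nr1d1 at 88.8 of all rows, and at percentiles 90.7 to 96.2 among rows within a factor of 2 of their own mean FPKM. Clock (SD 0.09, percentile 11.7) and Nr1d2 (SD 0.07, percentile 4.89) were among the steadier rows, and Ciart (SD 0.19, percentile 71.7) lay between. For Per1, Per2, Per3, Nr1d1 and Dbp, 35 to 42 of 55 pairs of libraries, taken over both groups, had separate Poisson intervals. Their spread thus exceeded counting error. For Ciart 16 pairs did, for Nr1d2 15 and for Clock 5. Such a count depends on read depth, and the share over all rows is not given here.

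**Figure D5:**
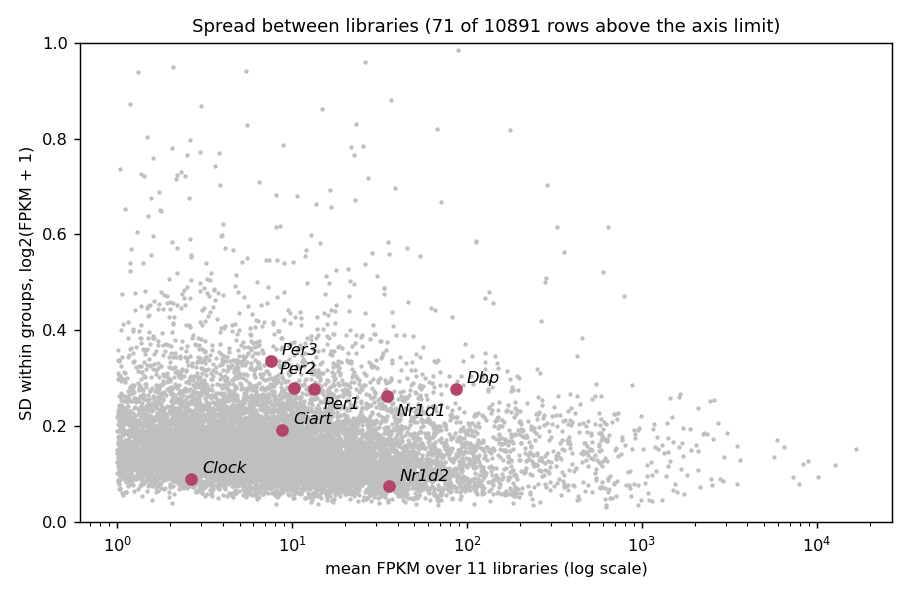
SD within groups on the log2(FPKM + 1) scale against mean FPKM (log axis) for all 10891 tested rows (grey) and the 8 tested clock genes (coloured). Per3, Per1, Per2, Dbp and Nr1d1 lie above most rows of like level, Clock and Nr1d2 below most.

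Genes that answer to stress and hormones varied over the same libraries. The FPKM of 13 immediate-early genes, which include Fos and Egr1, summed to 394 to 799 in PCOS hearts and 256 to 864 in control hearts, with the maximum in control replicate 5, the library lowest in Dbp and Nr1d1. PCOS replicate 3, with the next highest sum (799), had Dbp at 99.2 FPKM and Nr1d1 at 36.8 FPKM, so the library order was not shared throughout. In control replicate 5, Atf3, the most variable of the tested immediate-early genes, was at 51.2 FPKM and Egr1 at 152 FPKM. The sum of 10 glucocorticoid-responsive genes, a list that includes Per1, also peaked there at 595, against 356 to 466 in PCOS hearts and 364 to 428 in the other control hearts. Pdk4, a kinase that limits glucose oxidation, reached 160 FPKM in control replicate 5, against 37.6 to 75.9 FPKM in PCOS hearts and 30.2 to 115 FPKM in the other controls. Sgk1, a glucocorticoid-induced kinase gene, was likewise highest there, at 60.9 FPKM. Between the groups, 0 of 11 tested immediate-early genes (9 higher, 2 lower, median log2 difference 0.19) and 0 of 10 glucocorticoid-responsive genes (6 higher, 4 lower, median 0.09) were called. At an unadjusted limma p under 0.05, 0 immediate-early and 3 glucocorticoid-responsive genes passed, against 6.68% of all tested rows. The 3 were Ddit4 (0.48), Klf9 (−0.46) and Tsc22d3 (0.19), named after their values were seen. The part of these genes in the clock gene values was not tested.

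Markers of other cells were read beside the clock genes. The FPKM of 6 macrophage markers summed to 277 to 387 in PCOS hearts and 129 to 249 in control hearts. All 6 were higher in PCOS (median log2 difference 0.58). Of these, 5 had an unadjusted limma p under 0.05, against 6.68% of all tested rows. At the adjusted threshold 1, Cd68, was called, against 0.138% of all tested rows. Cd68 was at 17.6 ± 2.22 FPKM in PCOS (SD, n = 5) and 4.78 ± 1.66 FPKM in controls (SD, n = 6). Of 7 cardiac muscle markers, 4 were higher and 3 lower (median 0.04) with 0 called and 1 at an unadjusted p under 0.05, and of 12 hepatocyte markers 0 were called and all 12 were lower (median −1.12), the control 6 values included. Without control replicates 5 and 6, the log2 differences of the 10 clock genes lay between −0.16 (Nr1d1) and 0.09 (Dbp), and 0 of the 8 tested were called. The part of macrophage transcripts was not tested.

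Other parts of the clock were not called either. Of 12 other clock transcription regulators, 11 were tested and 0 were called, also at an unadjusted p under 0.05, with 2 higher, 9 lower and a median log2 difference of −0.06. The smallest p belonged to Arntl2, a BMAL1 paralog, at 1.2 ± 0.219 FPKM in PCOS (SD, n = 5) and 0.907 ± 0.267 FPKM in controls (SD, n = 6) (log2 difference 0.21, SE 0.11, limma adjusted p = 0.738). Cry1, a cryptochrome repressor, was at 4.09 ± 0.853 FPKM in PCOS and 5.01 ± 1.14 FPKM in controls (log2 difference −0.24, SE 0.14, limma adjusted p = 0.752), with its highest value, 6.96 FPKM, in control replicate 6, the library with liver transcripts. Nfil3, a repressor at D-boxes, differed by −0.13 (SE 0.10) and Timeless by −0.12 (SE 0.12).

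Kinases and ubiquitin ligases that set the stability of PER and CRY proteins were likewise not called, with 0 of 10 tested. At an unadjusted limma p under 0.05 there were 2, against 6.68% of all tested rows. In PCOS 3 were higher and 7 lower, median −0.05. Fbxw11, which encodes a beta-TrCP ligase subunit acting on PER proteins, was at 7.86 ± 1.23 FPKM in PCOS and 9.54 ± 1.17 FPKM in controls (log2 difference −0.26, SE 0.10, limma adjusted p = 0.738). Gsk3b, a kinase gene, differed by −0.16 (SE 0.07), and Btrc, the other beta-TrCP gene, by −0.09 (SE 0.06). Of the outputs that are rhythmic in many mouse tissues, 8 were tested and 0 called, with 1 at an unadjusted p under 0.05, 4 higher and 4 lower, median 0.01. Tsc22d3, a glucocorticoid-induced leucine zipper gene, was at 42 ± 5.36 FPKM in PCOS and 36.5 ± 2.53 FPKM in controls (log2 difference 0.19, SE 0.08, limma adjusted p = 0.738). Nampt (−0.14, SE 0.10), Dtx4 (0.15, SE 0.12) and Por (−0.11, SE 0.10) followed.

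The genes whose pattern over the 11 libraries was most like the balance were ranked by Pearson's r among 9474 tested genes with a symbol, as a description. Bdnf (0.87), Serbp1 (0.86), Dnajc21 (0.84), Glud1 (0.83) and Nol8 (0.82) ran with it. Prkag2 (−0.88), Gpr137 (−0.87), Angptl1 (−0.86), Lbx2 (−0.85) and Mocos (−0.84) ran against it. All 10 share the same 11 libraries with the balance, and no p is given for them.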

How the data were processed

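The authors deposited gene-level FPKM for poly(A)-selected heart RNA, 1 value per gene row and library. The labels' protocols state a mirVana extraction and a TruSeq kit that keeps strand. From the submitters' processing notes come mm10 as the build, Trimmomatic 0.38 and FastQC 0.11.9, HTSeq 0.13.5, HISAT2 2.2.1, DESeq2 1.18.1 and R 3.4.1; settings and the counted strand are not given in the sources used here.

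Symbols came from a RefSeq table of GRCm38.p6, which matched 87.2% of 21878 rows (19078). Groups and replicate numbers came from sample titles, columns from sample descriptions. Reads were recovered because FPKM values within a row are whole multiples of 1 read; all 15939 rows above 0 in at least 3 libraries came out whole within 0.01, with a largest distance of 0.000126 from a whole number. PCOS was compared with control on log2(FPKM + 1) by limma 3.58.1 under R 4.3.3 (eBayes with trend), in rows with a mean of at least 1 FPKM (10891), with Benjamini-Hochberg adjustment over these rows; the procedure was tested on simulated data. Correlations used 100000 permutations, adjusted over the pairs of a family, and exact permutation within the 6 controls.

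The clock genes, the lists and the tests were chosen with earlier results of these data known. Named genes were the 10 clock genes, the 4 members with the smallest p in each of 3 further clock lists (1 of these is not reported here), the 2 most variable members of the immediate-early, glucocorticoid and hepatocyte lists, and the 5 rows at each end of likeness to the balance. The hepatocyte, cardiac and macrophage lists served as checks of the tissue. Alternatives were other filters, pseudocounts and scalings, voom, sample weights, a block on replicate number, other genes in the balance and leaving out libraries; removing pairs of control libraries and a balance from Dbp, Nr1d1 and the Per genes alone were added after the data were seen.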

Additional observations from a re-analysis of the deposited data

How the results depend on the processing

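The count of clock genes called stayed at 0 in all 21 alternatives of the limma fit, and the count of correlated pairs at 0 in all 17 alternatives run for it. Over the 205 alternative fits of single clock genes, adjusted p ran from 0.33 to 1. The difference in balance between PCOS and control libraries was −0.09, with −0.23 at a pseudocount of 0.1, −0.17 to −0.04 when each library was left out in turn, and −0.06 to −0.14 with other genes in the target arm. Over all rows, 15 were called in the main fit, 5 with a minimum mean of 5 FPKM, 25 with sample weights, 25 with the replicate block, 36 without control libraries 5 and 6, and 10 to 32 when each library was left out (32 without control replicate 6).

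Signs of differences near 0 were not stable. Nr1d1 differed by −0.0049 after quantile normalization, −0.04 with the replicate block, −0.06 with sample weights, −0.00029 with voom, −0.11 without control libraries 2 and 5 and −0.16 without control libraries 5 and 6. Per2 differed by 0.0026 with sample weights. Without control libraries 2 and 5, Clock differed by 0.02, Npas2 by 0.01, Per1 by 0.08 and Dbp by −0.01; without control libraries 5 and 6, Per3 differed by −0.04. The correlation of Arntl and Per1 was −0.01 after median-ratio scaling and that of Npas2 and Per2 −0.03 after quantile normalization. Leaving out each library gave −0.09 to 0.09 for Nr1d1, −0.14 to 0.03 for Per1, −0.11 to 0.08 for Per2, −0.14 to 0.002 for Ciart, −0.06 to 0.0049 for Clock and −0.08 to 0.02 for Npas2. For r it gave −0.01 to 0.37 (Arntl and Nr1d1), −0.14 to 0.24 (Arntl and Per1) and −0.04 to 0.27 (Npas2 and Per2). The cause of these sign changes was not tested.

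Same-numbered PCOS and control samples deviated together with correlations from −0.1183 to 0.2544 over 5 pairs, so the numbers were not taken as pairs; with the replicate block, 0 clock genes were called and the balance differed by −0.07. Depth limits Arntl and Npas2 most, at 5 to 52 reads per library.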

Other observations

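Nfil3, whose product competes with DBP for D-boxes, ran against Dbp across the libraries. The pair was picked from 11 regulators set against Dbp after their values were seen, so its values are a description and no p is given. Nfil3 was highest in control replicate 5, at 3.59 FPKM, where Dbp was lowest at 53.1 FPKM. Over the 11 libraries r was −0.83 and rho −0.75. Without control replicates 5 and 2, the libraries farthest from the median of Dbp, r was −0.61, and within the 6 controls it was −0.78.

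Rora, which encodes a nuclear receptor that activates genes through ROREs, gave r −0.77 and rho −0.63 with Dbp, picked in the same way. Its r was −0.35 without the same libraries.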
